A study of Mus musculus with 20 samples.

Results

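The sphingolipid genes described here are 36 named enzymes and regulators of ceramide synthesis, sphingomyelin turnover, sphingosine metabolism and glycosphingolipid breakdown, chosen by symbol from the 20914 genes of the count table. Of these, 35 had a row, 33 passed the filter on low counts among 13670 tested genes, and Cers1 was not analysed here. RNA was sequenced from the liver (left lateral lobe) of 10 knockout (KO) and 10 wild-type (WT) LiB12cKO mice, all males aged 8 weeks. KO mice had the genotype HSD17B12lox/lox;Alb-CreCre/WT and WT mice HSD17B12lox/lox;Alb-CreWT/WT, so both carried 2 floxed Hsd17b12 alleles and only KO mice carried Cre. The Cre transgene uses the albumin promoter and so acts in hepatocytes, and effects of Cre and of the deletion cannot be told apart. The design addresses what loss of HSD17B12 in hepatocytes does to the liver.

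Sphingolipids are built on a long chain base that serine palmitoyltransferase (SPT) makes from serine and palmitoyl-CoA. A reductase, the ceramide synthases and a desaturase then turn the base into ceramide, whose second chain is a fatty acid that is often very long in liver. Ceramide becomes sphingomyelin or glucosylceramide, and hydrolases in lysosomes and at other membranes return these to ceramide and sphingosine. Sphingosine kinases turn sphingosine into sphingosine 1-phosphate (S1P), which a lyase destroys. HSD17B12 is the 3-ketoacyl-CoA reductase of the cycle that elongates fatty acids to very long chains.

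The libraries held 16693195 to 29124124 fragments assigned to genes. Hsd17b12 itself averaged 47.9 ± 2.48 CPM in KO and 151 ± 18.5 CPM in WT mice (mean ± SD of 10; CPM, counts scaled to library size times the TMM factor), and all 10 KO mice lay below all 10 WT mice (log2 fold change -1.66, SE 0.0644, adjusted p = 3.85e-14). Mouse KO_391 stood between the genotypes on the leading principal component, at -4.19, where the other KO mice reached at most -28.5 and the WT mice began at 22.6. KO libraries had TMM factors of 1.18 ± 0.0612 and WT libraries of 0.852 ± 0.0609. Scaling by library size alone, without them, moved the median over all 13670 log2 fold changes by 0.47, to 0.44 against -0.025. Multi-mapping fragments were 3.32% ± 1.89 in KO and 9.68% ± 3.71 in WT libraries, and their part in the results was not tested. Fold changes below are KO over WT with TMM factors. Fewer cells of a type and less RNA per cell cannot be told apart in these bulk samples.

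Genes of sphingolipid metabolism were mostly higher in KO liver. Of the 33 tested, 20 rose and 7 fell at an adjusted p under 0.05 (edgeR quasi-likelihood test, Benjamini-Hochberg over 13670 genes), where 28.2% of all tested genes were called higher and 31.0% lower, 59.2% in either direction. The members' shares were 60.6% higher and 21.2% lower, and their median was 0.48 on the log2 scale, against -0.025 over all genes. Most rises were moderate: 11 of the 20 lay between 0.5 and 0.75 on the log2 scale, 5 lay below 0.5 and 4 above 0.75. At least 2-fold rises were those of Smpd3, Sptlc2 and Cers6, 3 of 33 members against 7.69% of all tested genes, and no member fell by 2-fold (4.10% of all). All KO mice lay above all WT mice for 8 members (7.20% of all tested genes) and below them for 2 (6.12%). With library size alone 28 members were higher and 0 lower, against 68.4% and 6.71% of all tested genes, so all 20 rises kept their call and none of the 7 falls did. Smpd1 and Smpd4, called lower with TMM factors, were called higher there.

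**Figure D1:**
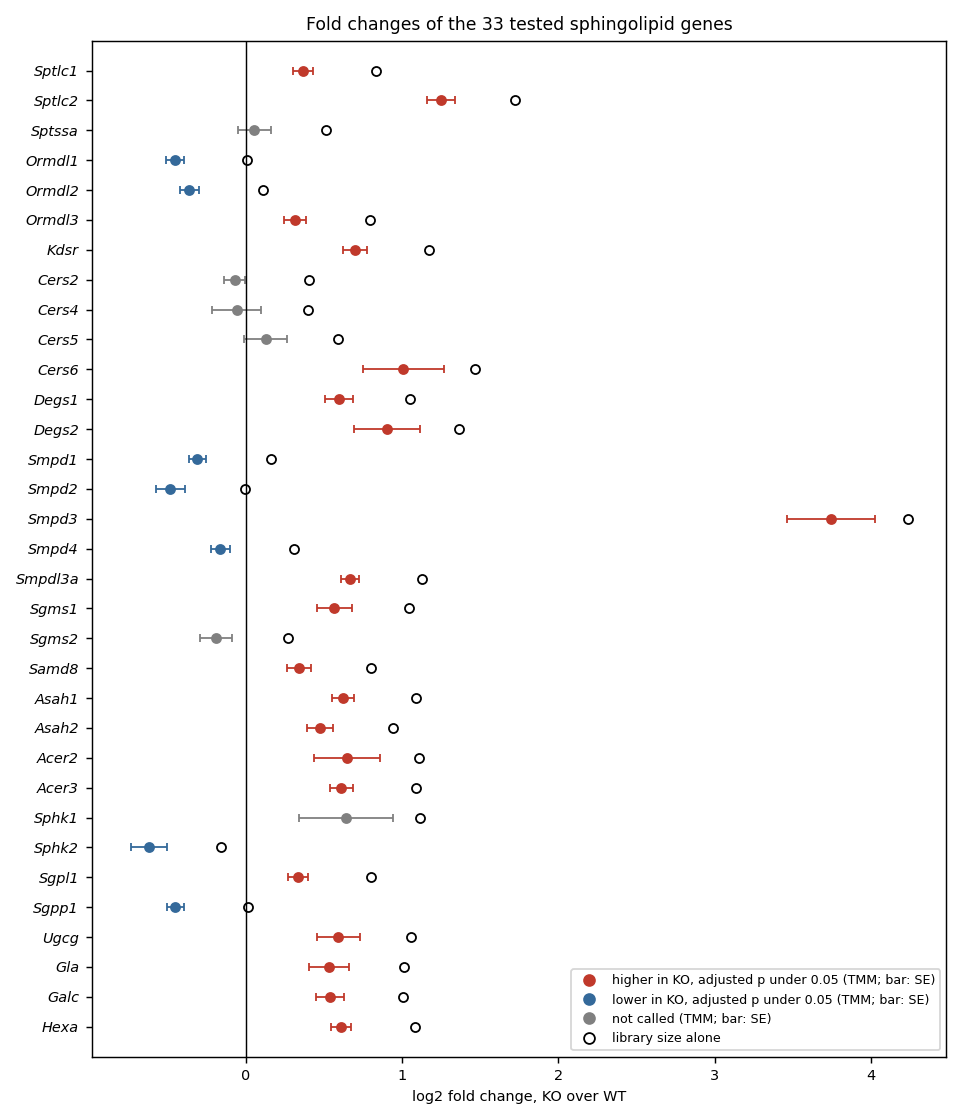
Fold change of each tested gene, KO over WT on the log2 scale, with genes in pathway order down the page. Filled points with SE bars use TMM factors and are coloured by call, and open circles use library size alone, which shifts all genes to the right. Smpd3 at 3.74 and Sptlc2 at 1.25 lie farthest to the right, and of the 7 genes lower with TMM 5 reach a positive value with library size alone.

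Promoter windows are shown for the called members with an E-box and for Sptlc2, to set the sequence beside the values that follow. Windows of 250 bases before to 50 after a gene start, as RefSeq places it, were matched for 32 of the 35 genes (RefSeq, GRCm38.p6, the assembly of mm10), giving 48 windows. Asah1, Smpd3 and Smpdl3a had no window, so their promoters were not searched for any motif. The E-box CACGTG, which reads the same on both strands and is bound by the lysosomal regulator TFEB and other basic helix-loop-helix factors, stood in 9 of the 48 member windows and in 7.15% of 32851 windows of all genes. Those 9 windows belong to 8 genes, of which Cers6, Degs1 and Gla rose, Smpd2 fell, and Cers2, Sgms2, Sphk1 and Smpdl3b were not called or not tested. In the 4 called genes the E-box is in capitals, and it starts 22 bases before the RefSeq start in Cers6, 43 in Degs1, 194 in Smpd2, and 227 and 194 in Gla. The annotation used for counting starts Gla and Smpd2 at the same base, Cers6 116 bases and Sptlc2 125 bases farther downstream, and Degs1 564 bases farther upstream, so the Degs1 window lies inside the gene by that annotation.
Cers6 (chr2:68861191-68861490, plus strand): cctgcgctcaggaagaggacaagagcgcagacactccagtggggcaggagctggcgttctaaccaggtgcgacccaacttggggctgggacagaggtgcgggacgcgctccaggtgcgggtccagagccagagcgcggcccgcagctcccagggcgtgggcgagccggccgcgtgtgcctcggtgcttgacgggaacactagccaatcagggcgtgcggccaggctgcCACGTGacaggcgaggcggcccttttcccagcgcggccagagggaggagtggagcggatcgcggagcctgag
Degs1 (chr1:182282146-182282445, minus strand): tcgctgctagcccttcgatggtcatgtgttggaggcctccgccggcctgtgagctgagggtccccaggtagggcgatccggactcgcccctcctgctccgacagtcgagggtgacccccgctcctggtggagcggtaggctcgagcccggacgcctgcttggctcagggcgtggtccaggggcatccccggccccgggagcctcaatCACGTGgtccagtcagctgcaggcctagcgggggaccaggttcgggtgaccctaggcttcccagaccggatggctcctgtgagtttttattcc
Smpd2 (chr10:41490291-41490590, minus strand): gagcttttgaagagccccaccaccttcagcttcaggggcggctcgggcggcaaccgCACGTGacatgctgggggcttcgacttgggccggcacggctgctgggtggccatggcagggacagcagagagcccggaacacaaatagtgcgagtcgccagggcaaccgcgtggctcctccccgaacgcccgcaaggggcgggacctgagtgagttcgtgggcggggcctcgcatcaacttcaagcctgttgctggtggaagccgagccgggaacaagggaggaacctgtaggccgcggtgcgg
Gla (chrX:134600956-134601255, minus strand): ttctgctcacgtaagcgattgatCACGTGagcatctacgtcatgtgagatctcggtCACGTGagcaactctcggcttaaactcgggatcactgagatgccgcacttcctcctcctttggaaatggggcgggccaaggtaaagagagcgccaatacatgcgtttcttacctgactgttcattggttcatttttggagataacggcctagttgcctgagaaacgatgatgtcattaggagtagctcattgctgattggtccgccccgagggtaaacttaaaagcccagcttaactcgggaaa
Both E-boxes of Gla lie inside the longer palindrome TCACGTGA, which was found in 0.974% of all windows and in that 1 member window. The Sptlc2 window has no E-box, and its 3 GC boxes (GGGCGG or its reverse complement, in capitals) are shown because Sptlc2 rose most among the enzymes of de novo synthesis.
Sptlc2 (chr12:87388306-87388605, minus strand): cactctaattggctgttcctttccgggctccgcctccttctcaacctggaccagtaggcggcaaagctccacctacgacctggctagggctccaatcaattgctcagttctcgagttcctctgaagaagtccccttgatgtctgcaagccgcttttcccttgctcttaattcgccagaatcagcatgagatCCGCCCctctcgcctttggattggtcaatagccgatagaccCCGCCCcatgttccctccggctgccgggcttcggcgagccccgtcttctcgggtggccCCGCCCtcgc
GC boxes were found in 29 of the 48 member windows and in 35.7% of all windows, and the direct repeat DR1, searched on both strands, in 0 of the member windows and 0.0396% of all. A match describes these letters and not a bound site.

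In de novo synthesis Sptlc1, Sptlc2, Kdsr, Degs1, Degs2, Cers6 and Ormdl3 rose, and Ormdl1 and Ormdl2 fell with TMM factors but not with library size alone. Of 13 tested genes 7 rose and 2 fell, or 53.8% and 15.4%, against 28.2% and 31.0% of all tested genes. Sptlc2, the catalytic subunit of SPT (mm10 chromosome 12, 87307889 to 87388230), had 25.3, 34.1 and 45.4 CPM in KO mice (lowest, median and highest of 10), against 12.8, 15.6 and 16.6 CPM in WT mice (log2 fold change 1.25, SE 0.0903, adjusted p = 2.39e-10). The lowest KO mouse, KO_391, stood above the highest WT mouse, so the genotypes did not overlap. Its partner Sptlc1, which every SPT complex contains, had 19.1, 21.5 and 24.1 CPM in KO mice, against 13.3, 16.6 and 19.6 CPM in WT mice (log2 fold change 0.37, SE 0.0667, adjusted p = 7.05e-05). For Sptlc1 the ranges met in mouse KO_391, while the other 9 KO mice lay above every WT mouse. Sptssa, the small subunit that activates SPT, was not called, with 46.2 ± 7.54 CPM in KO and 44.4 ± 8.22 CPM in WT (log2 fold change 0.054, adjusted p = 0.676). Sptlc3, the alternative catalytic subunit, had 2 fragments over the 10 KO libraries and 0 over the 10 WT libraries, under the 3 that a count of 0 allows. Sptlc2 therefore made up 99.8% or more of the summed RPKM (the authors' values, scaled for gene length) of the 2 catalytic subunits in every mouse.

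The 3 ORMDL genes encode small membrane proteins that hold SPT back when ceramide is plentiful, and they moved apart. Ormdl3 had 102, 108 and 122 CPM in KO mice, against 70.1, 87.9 and 106 CPM in WT mice (log2 fold change 0.31, SE 0.0709, adjusted p = 6.61e-04). Ormdl1 had 14.8, 16.6 and 21.6 CPM in KO mice, against 21.2, 23.7 and 25.4 CPM in WT mice (log2 fold change -0.45, SE 0.0594, adjusted p = 1.24e-06), and only mouse KO_391, at 21.6 CPM, reached the WT range. Ormdl2 had 13.5, 15.9 and 18.6 CPM in KO mice, against 18.6, 20.2 and 24.2 CPM in WT mice (log2 fold change -0.36, SE 0.0612, adjusted p = 2.99e-05), with no overlap. The falls of Ormdl1 and Ormdl2 were not seen with library size alone, where their log2 fold changes were 0.011 and 0.11.

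Because a share within a library does not depend on the scaling factor, the make-up of the family was also compared. Ormdl3 made up 75.8% ± 2.42 in KO and 65.3% ± 3.46 in WT of the family's summed RPKM (SD; 10 mice per genotype), and its KO range of 71.0% to 79.4% lay above the WT range of 60.7% to 70.5%. Ormdl1 held 13.2% ± 1.50 in KO and 19.5% ± 2.35 in WT, with ranges that overlapped. The share of Ormdl2 was 11.0% ± 1.16 in KO and 15.2% ± 1.50 in WT, with KO below WT in every mouse. Exons of Ormdl2 share 1559 of their 2055 bases with exons of Dnajc14 on the opposite strand. The strand setting of the counting is not given, so the level of Ormdl2 and the shares of the family are uncertain. Ormdl3 and Ormdl1 held 71.0% and 16.3% in mouse KO_391 and 70.5% and 15.9% in mouse WT_408. Without Ormdl2 the ranges of the Ormdl3 share would therefore overlap. Cers2 shares 46 of its 2019 exon bases with Setdb1 on the opposite strand, and Sptlc1, Smpd1, Smpdl3a and Hexa overlap opposite genes with no symbol. Dnajc14 averaged 30.6 ± 1.94 CPM in KO and 27.4 ± 3.80 CPM in WT and was not called (adjusted p = 0.0527). Summed over the family with TMM factors, the genotypes stayed close, at 70.8 ± 2.93 RPKM in KO and 65.8 ± 6.29 RPKM in WT (SD, n = 10 each). Unlike a share, this sum depends on the scaling factor, and with library size alone the log2 fold change of Ormdl3 was 0.79.

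**Figure D2:**
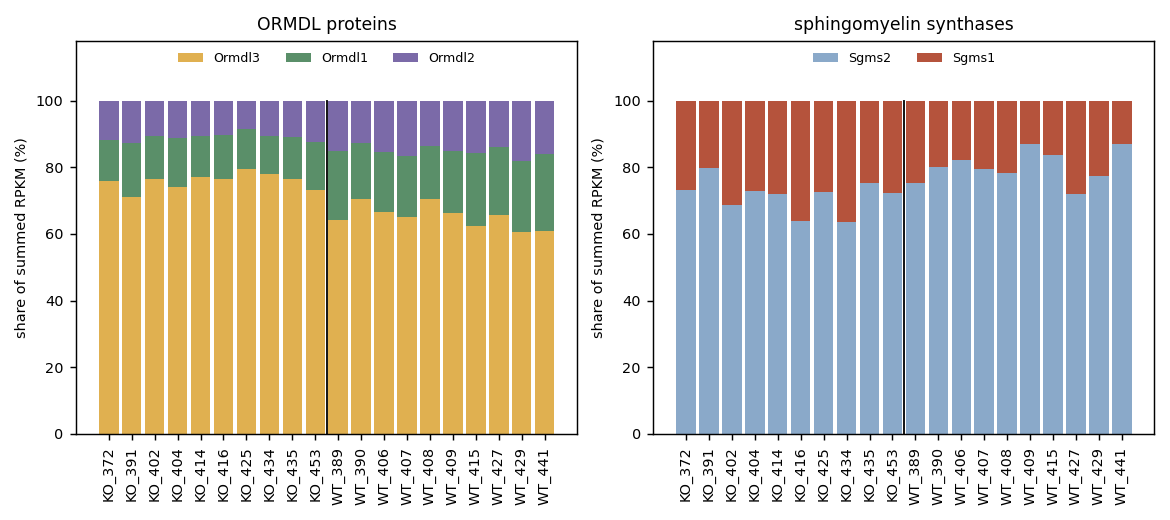
Share of each gene in the summed RPKM of its family, in percent, with 1 stacked bar per mouse, KO mice left of the line and WT mice right of it. Ormdl3 takes 71.0% to 79.4% in KO mice and 60.7% to 70.5% in WT mice, and Sgms1 takes 20.3% to 36.5% in KO mice and 13.1% to 27.9% in WT mice.

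Kdsr, the reductase that makes dihydrosphingosine from the product of SPT, had 31.3, 38.3 and 41.1 CPM in KO mice, against 19.9, 22.5 and 30.0 CPM in WT mice (log2 fold change 0.70, SE 0.0755, adjusted p = 7.78e-08). Every KO mouse exceeded every WT mouse. Degs1, the desaturase that turns dihydroceramide into ceramide, had 77.2, 85.8 and 97.7 CPM in KO mice, against 44.9, 55.2 and 71.9 CPM in WT mice (log2 fold change 0.60, SE 0.0906, adjusted p = 7.97e-06), again without overlap. Degs2, which also hydroxylates dihydroceramide, was a minor form at 0.472 ± 0.109 RPKM in KO and 0.251 ± 0.0961 RPKM in WT, against 43.6 ± 3.43 and 28.8 ± 5.59 RPKM of Degs1 (SD, n = 10 each). It rose by 0.90 on the log2 scale (adjusted p = 9.36e-04), and Degs2 shares 488 of its 3574 exon bases with Evl on the opposite strand, which rose by 1.26 itself. Whether fragments of Evl add to the Degs2 count was not tested.

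Ceramide synthases differ in the length of the fatty acid they attach: CERS2 takes very long chains, CERS5 and CERS6 mainly palmitoyl-CoA, and CERS4 chains of intermediate length. Cers2 was by far the most abundant, at 131 ± 13.1 RPKM in KO and 137 ± 14.6 RPKM in WT, and the highest of all 33 tested members in WT. Its counts gave 207, 268 and 295 CPM in KO mice, against 234, 273 and 323 CPM in WT mice, with a log2 fold change of -0.071 (SE 0.0698, adjusted p = 0.391) that was 0.40 with library size alone. Cers6 was the only ceramide synthase called with TMM factors, while all 4 were called higher with library size alone. It had 4.08, 5.97 and 8.59 CPM in KO mice, against 1.17, 2.51 and 6.30 CPM in WT mice (log2 fold change 1.01, SE 0.260, adjusted p = 0.00219). The Cers6 ranges overlapped, 4 KO mice lay above the highest WT mouse, and the WT values varied widely, with a coefficient of variation of 58.8%. Cers4 and Cers5 had log2 fold changes of -0.056 and 0.13 and were not called (adjusted p = 0.775 and 0.433). In spite of the rise of Cers6 the family stayed almost wholly Cers2: its share of summed RPKM was 97.2% ± 0.644 in KO and 98.0% ± 0.662 in WT mice (SD of 10), and that of Cers6 1.17% ± 0.369 in KO and 0.574% ± 0.384 in WT.

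**Figure D3:**
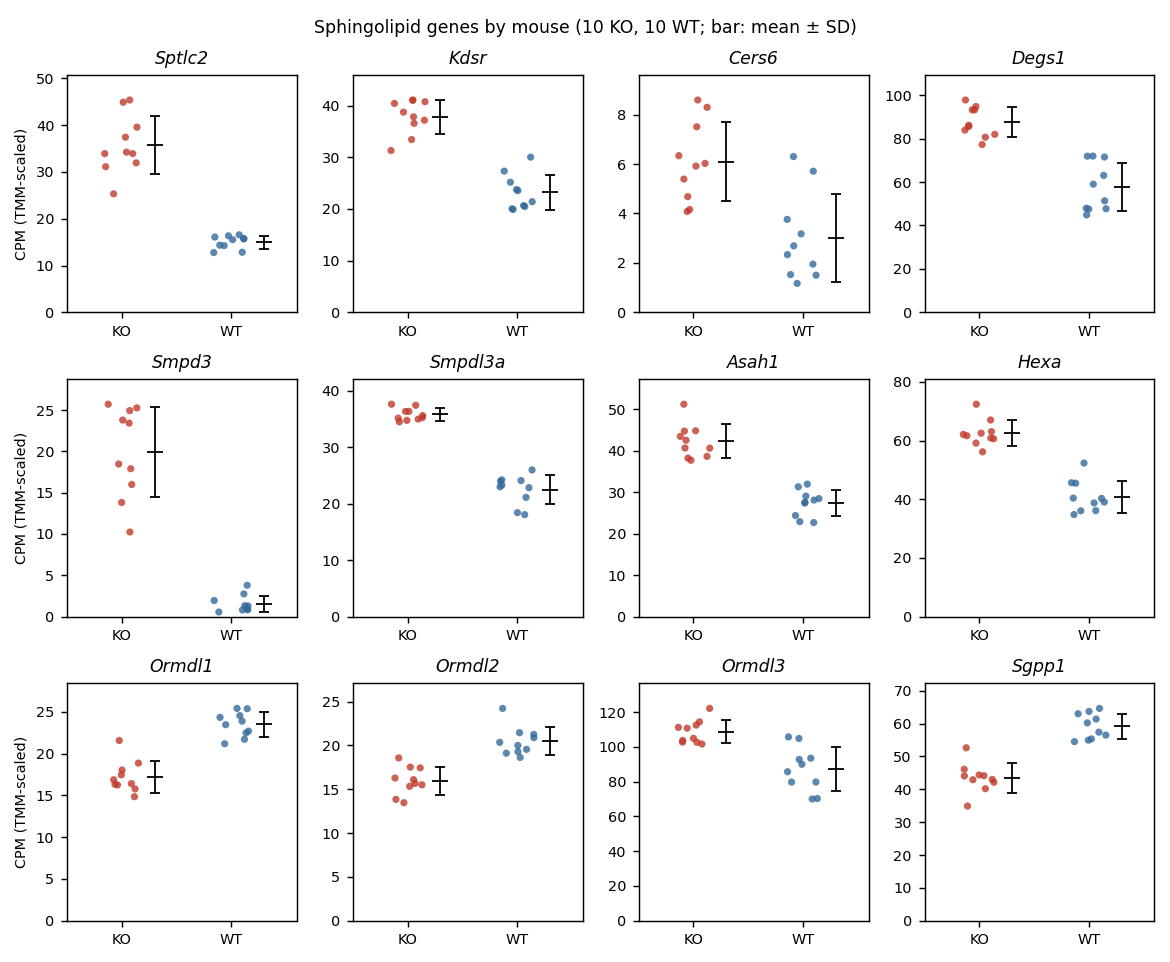
Level of 12 called genes in each mouse, in TMM-scaled CPM on a linear axis from 0, KO left of WT, with bars for mean ± SD. KO points lie above all WT points for Sptlc2, Kdsr, Degs1, Smpd3, Smpdl3a, Asah1 and Hexa and below them for Ormdl2 and Sgpp1, while Cers6, Ormdl1 and Ormdl3 overlap.

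In the sphingomyelin cycle 4 of 8 tested genes rose and 3 fell, and 1 gene stood apart. These were 50% and 37.5%, against 28.2% higher and 31.0% lower among all tested genes, so the share of falls was near that of all genes. Smpd3, the neutral sphingomyelinase of the plasma membrane and Golgi, had 10.2, 20.9 and 25.7 CPM in KO mice, against 0.552, 1.17 and 3.79 CPM in WT mice (log2 fold change 3.74, SE 0.284, adjusted p = 1.09e-09; mm10 chromosome 8, 106252548 to 106337988). Its count was 4913 fragments over the 10 KO libraries and 279 over the 10 WT libraries, so the WT level rests on few fragments. KO mice did not overlap WT mice, yet spread from 10.2 to 25.7 CPM. The other sphingomyelinases went the other way with TMM factors. Smpd1, the acid sphingomyelinase of lysosomes, had 25.2, 27.7 and 32.3 CPM in KO mice, against 31.5, 33.3 and 40.5 CPM in WT mice (log2 fold change -0.31, SE 0.0555, adjusted p = 5.61e-05), and 9 of 10 KO mice lay below the WT range. Smpd2, a neutral sphingomyelinase, had 22.9, 26.0 and 32.3 CPM in KO mice, against 28.6, 39.0 and 47.8 CPM in WT mice (log2 fold change -0.48, SE 0.0932, adjusted p = 1.32e-04). For Smpd4, another neutral form, the log2 fold change was -0.16 (adjusted p = 0.0276), and leaving out any of 9 single mice ended that call, with adjusted p between 0.0551 and 0.0920. With library size alone Smpd1, Smpd2 and Smpd4 had log2 fold changes of 0.16, -0.0047 and 0.31. Smpd3 in KO, at 3.87 ± 1.06 RPKM, reached a level close to that of Smpd4 at 3.41 ± 0.255 RPKM and stayed below Smpd1 at 11.6 ± 0.888 RPKM and Smpd2 at 16.8 ± 2.13 RPKM (SD, n = 10).

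Smpdl3a, a secreted phosphodiesterase related to acid sphingomyelinase, had 34.5, 35.4 and 37.6 CPM in KO mice, against 18.05, 23.1 and 26.0 CPM in WT mice (log2 fold change 0.67, SE 0.0579, adjusted p = 3.43e-09). It was the most even of the 33 members among KO mice, with a coefficient of variation of 3.06%, and the genotypes did not overlap. Smpdl3b did not pass the filter, at 0.667 CPM in KO and 0.325 CPM in WT. Sphingomyelin is made from ceramide by SGMS1 in the Golgi and by SGMS2 at the plasma membrane. Sgms1 had 10.2, 14.8 and 19.0 CPM in KO mice, against 7.64, 10.3 and 13.7 CPM in WT mice (log2 fold change 0.57, SE 0.112, adjusted p = 1.80e-04). Sgms2, the more abundant of the pair, had 40.6, 47.3 and 54.9 CPM in KO mice, against 40.8, 49.5 and 84.8 CPM in WT mice and was not called (log2 fold change -0.19, adjusted p = 0.121; 0.27 with library size alone). The share of Sgms1 in the summed RPKM of both was 28.7% ± 4.93 in KO and 19.7% ± 4.81 in WT mice (SD of 10), with ranges that overlapped. Samd8, which encodes a related synthase of ceramide phosphoethanolamine, rose by 0.34 on the log2 scale (adjusted p = 6.12e-04).

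All 4 ceramidases, which split ceramide into sphingosine and a fatty acid, rose, where 28.2% of all tested genes did. Asah1, the lysosomal acid ceramidase, had 37.7, 41.6 and 51.3 CPM in KO mice, against 22.7, 27.9 and 32.0 CPM in WT mice (log2 fold change 0.62, SE 0.0688, adjusted p = 1.12e-07), without overlap. Acer3, an alkaline ceramidase of the Golgi and endoplasmic reticulum, had 10.3, 12.6 and 14.3 CPM in KO mice, against 7.15, 7.99 and 9.30 CPM in WT mice (log2 fold change 0.61, SE 0.0738, adjusted p = 3.73e-07), also without overlap. The neutral ceramidase Asah2 rose by 0.48 on the log2 scale (adjusted p = 4.14e-05), with 9 of 10 KO mice above the WT range. Acer2, the Golgi ceramidase, had 11.8, 14.7 and 28.1 CPM in KO mice, against 6.60, 9.90 and 17.8 CPM in WT mice (log2 fold change 0.65, SE 0.213, adjusted p = 0.0130). Its values spread more within a genotype than those of the other ceramidases, with coefficients of variation of 36.6% in KO and 34.6% in WT.

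The genes that make and remove S1P moved in different directions. Sphk2, the main sphingosine kinase in these livers, had 39.9, 51.3 and 58.3 CPM in KO mice, against 50.0, 83.4 and 102 CPM in WT mice (log2 fold change -0.62, SE 0.115, adjusted p = 8.85e-05; -0.16 with library size alone). Its exons share 539 of 4163 bases with those of Dbp on the opposite strand, a clock-controlled gene with 2.81, 8.65 and 30.4 CPM in KO mice, against 3.09, 30.6 and 69.5 CPM in WT mice. Whether Dbp fragments contribute to the Sphk2 difference was not tested. Sphk1 was near the detection limit, at 0.791 ± 0.323 CPM in KO and 0.490 ± 0.261 CPM in WT, and was not called (log2 fold change 0.64, adjusted p = 0.0709; 0.0458 without mouse KO_391). Sgpl1, the lyase that ends the pathway, had 57.7, 72.2 and 76.7 CPM in KO mice, against 46.3, 54.9 and 64.9 CPM in WT mice (log2 fold change 0.33, SE 0.0634, adjusted p = 1.15e-04). Sgpp1, the phosphatase that returns S1P to sphingosine, had 34.9, 43.5 and 52.7 CPM in KO mice, against 54.5, 58.8 and 64.6 CPM in WT mice (log2 fold change -0.45, SE 0.0573, adjusted p = 8.00e-07), lower in every KO mouse than in any WT mouse, and its log2 fold change was 0.016 with library size alone.

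Genes of glycosphingolipid synthesis and breakdown all rose, 4 of 4, by similar amounts, where 28.2% of all tested genes rose. Ugcg, which makes glucosylceramide, had 22.9, 31.6 and 45.3 CPM in KO mice, against 14.7, 19.2 and 28.6 CPM in WT mice (log2 fold change 0.59, SE 0.139, adjusted p = 0.00100). Hexa, the alpha subunit of lysosomal beta-hexosaminidase that acts on ganglioside GM2, had 56.2, 61.9 and 72.4 CPM in KO mice, against 34.8, 39.6 and 52.3 CPM in WT mice (log2 fold change 0.61, SE 0.0664, adjusted p = 8.94e-08), without overlap. Galc, the lysosomal galactosylceramidase, had 8.04, 8.76 and 10.6 CPM in KO mice, against 5.25, 5.80 and 8.70 CPM in WT mice (log2 fold change 0.54, SE 0.0889, adjusted p = 2.05e-05). Gla, the lysosomal alpha-galactosidase A whose window holds the 2 E-boxes shown above, had 5.04, 7.28 and 10.9 CPM in KO mice, against 4.51, 5.13 and 6.10 CPM in WT mice (log2 fold change 0.53, SE 0.129, adjusted p = 0.00121). The Gla range of KO mice began inside the WT range, and 7 of 10 KO mice lay above it.

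Marker genes of some other liver cells moved with genotype in the same libraries. Over all tested genes 28.2% were called higher and 31.0% lower. Of 14 macrophage and Kupffer cell markers 12 rose and 0 fell, and their summed level was 266 to 526 RPKM in KO mice and 114 to 223 RPKM in WT mice, without overlap. Of 10 stellate cell markers 7 rose and 0 fell (107 to 171 RPKM in KO, 64.5 to 124 RPKM in WT), and of 8 endothelial markers 3 rose and 0 fell (59.5 to 77.4 RPKM in KO, 42.1 to 74.5 RPKM in WT). Among 6 tested cholangiocyte markers 2 rose and 1 fell (28.7 to 113 RPKM in KO, 11.5 to 31.3 RPKM in WT), and Spp1 stood in both this list and the macrophage list. Spp1 averaged 46.2 RPKM in KO and 18.7 RPKM in WT, and no other gene of the cholangiocyte list averaged above 2.06 RPKM in either genotype. The sums of that list are therefore mostly Spp1. The 3 tested lymphocyte markers had 0 rises and 1 fall (1.13 to 11.4 RPKM in KO, 1.44 to 9.26 RPKM in WT), and the 3 tested neutrophil markers 0 of each (2.86 to 13.0 RPKM in KO, 0.742 to 10.2 RPKM in WT). All 9 hepatocyte markers in the table fell, with sums of 26882 to 34852 RPKM in KO and 45832 to 63478 RPKM in WT. With library size alone 1 hepatocyte marker was higher and 5 lower, and 13 macrophage, 8 stellate and 8 endothelial markers were higher. In that setting 68.4% of all tested genes were called higher and 6.71% lower. The hepatocyte sums exceeded those of every other list in each mouse. None of the markers in the table was at 0 in all mice. The part of the macrophage and stellate markers in the rises of the sphingolipid genes was not tested.

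Within the KO group mouse KO_391 was nearest to WT most often. For 15 of the 27 called members it had the KO value closest to the WT mice, where each other KO mouse had at most 3, and it was never the farthest. Its library also had 8.46% multi-mapping fragments and a TMM factor of 1.04, where the other KO libraries had 2.09% to 4.02% and 1.11 to 1.23. Its Hsd17b12 level, 50.9 CPM, lay within the KO range of 44.0 to 51.3 CPM. The part of these library values in its position was not tested. Mouse KO_434 was the farthest from WT for 9 members. Averaged over the 20 genes that rose, KO_391 lay 0.56 above the mean of the WT mice in log2(CPM + 0.1), and the other KO mice 0.71 to 0.99 above it. Over the 7 genes that fell KO_391 lay at -0.16 and the other KO mice at -0.55 to -0.29. Without it 22 members rose, Sphk1 and Smpdl3b being added, and 7 fell, and the log2 fold change of Sptlc2 was 1.32.

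**Figure D4:**
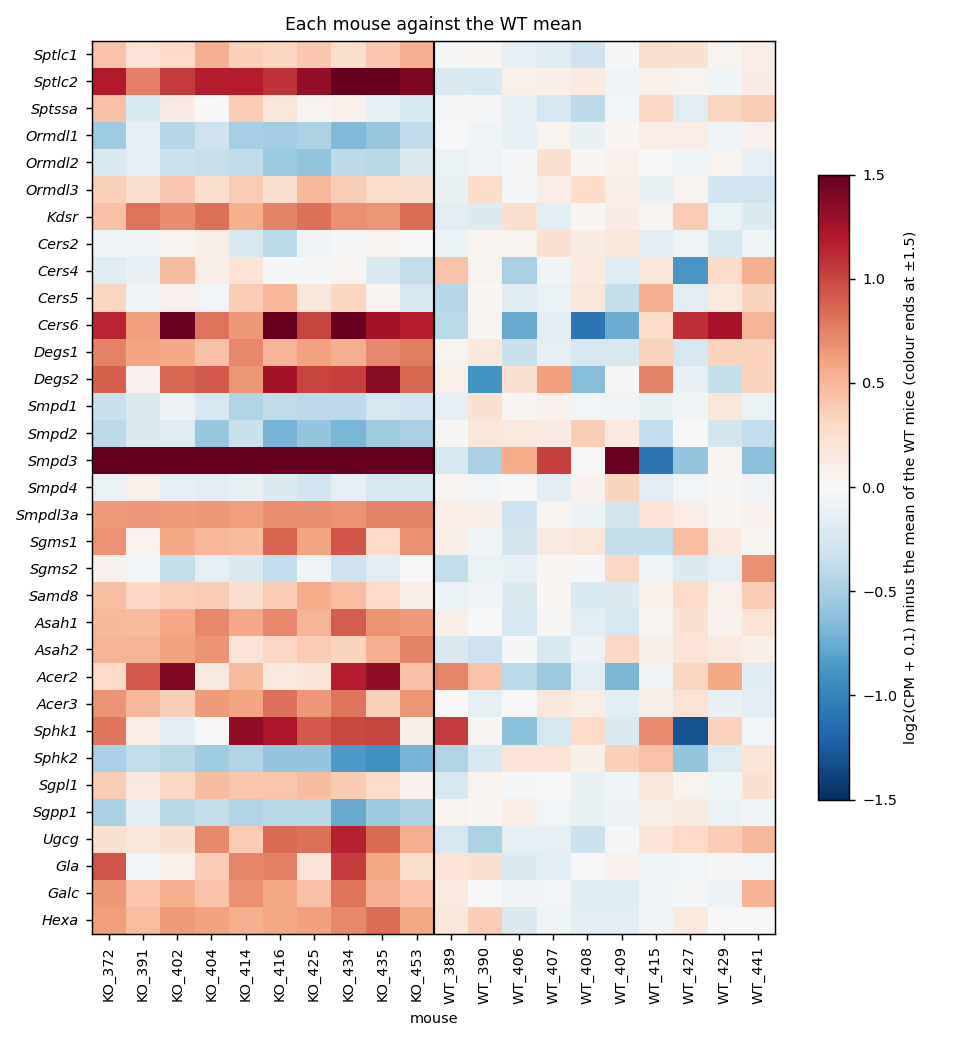
Level of each tested gene in each mouse as log2(CPM + 0.1) minus the mean of the WT mice, KO mice left of the line and WT mice right of it; red is higher and blue lower, and colours end at 1.5 in either direction. Sptlc2 and Smpd3 are red in all KO mice, mouse KO_391 is the palest KO column for many genes, and Acer2, Cers6 and Sphk1 vary among mice of a genotype.

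The other genes of the pathway were a list of 40, of which 30 were tested. Among them 17 rose and 7 fell, or 56.7% and 23.3%, against 28.2% and 31.0% of all tested genes. Their median log2 fold change was 0.30, against -0.025 over all genes. With library size alone 23 rose and 4 fell, where 68.4% of all tested genes were called higher and 6.71% lower. With TMM factors the rises with the smallest adjusted p were those of Gal3st1, Aldh3a2, Rtn4 and S1pr2. Gal3st1, the sulfotransferase that makes sulfatide, had 11.5, 16.1 and 19.2 CPM in KO mice, against 0.0813, 0.661 and 1.75 CPM in WT mice (log2 fold change 4.12, SE 0.280, adjusted p = 1.84e-10). Aldh3a2, the fatty aldehyde dehydrogenase that oxidises the aldehyde released by the S1P lyase, had 570.0, 648 and 733 CPM in KO mice, against 85.9, 170.1 and 227 CPM in WT mice (log2 fold change 1.97, SE 0.151, adjusted p = 6.14e-10). Rtn4, a reticulon whose Nogo-B form restrains SPT in mouse endothelium, rose by 1.71 on the log2 scale (adjusted p = 1.92e-09). The S1P receptors went both ways: S1pr2 rose by 1.36 on the log2 scale (adjusted p = 1.84e-08), while S1pr1 and S1pr5 had log2 fold changes of -0.95 and -1.38 (adjusted p = 4.88e-07 and 1.71e-06). Gba2, a glucosylceramidase outside the lysosome, had 7.32, 8.94 and 9.88 CPM in KO mice, against 11.2, 17.5 and 26.1 CPM in WT mice (log2 fold change -1.04, SE 0.125, adjusted p = 3.92e-07), and its exons overlap those of Creb3 and Rgp1. Spns2, an S1P exporter, had a log2 fold change of -0.82 (adjusted p = 1.21e-05). These 4 falls kept their direction and call with library size alone, at -0.48 for S1pr1, -0.91 for S1pr5, -0.56 for Gba2 and -0.36 for Spns2.

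The authors' deposited table, made with another test, lists 32 members. In the authors' deposited table all 27 members called here have the same sign, with 18 rises and 5 falls at a false discovery rate under 0.05. Ormdl3, Sgpl1, Smpd1 and Smpd4 are above that rate there, at 0.0562, 0.0513, 0.0685 and 0.278 in the authors' deposited table. The authors' deposited table of gene ontology terms gives a false discovery rate of 0.00358 for sphingolipid biosynthetic process (53 annotated genes) and 0.0175 for ceramide biosynthetic process (39 annotated genes). For sphingolipid catabolic process (24 annotated genes) and glycosphingolipid metabolic process (29 annotated genes) the authors' deposited table of terms gives 0.160 and 0.187. It states no direction.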

How the data were processed

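Total liver RNA of 20 mice was sequenced by the authors. The deposited counts are raw fragments per Entrez gene. Per the file headers and names, Rsubread counted them over mm10 RefSeq genes, whereas HISAT2 2.0.5 and DESeq2 appear in the submitters' processing notes. The authors' normalized signal was found to equal TMM-scaled CPM (largest relative deviation 4.98e-15), and the deposited RPKM divide it by gene length. The authors' table of ROTS results gives a log2 fold change, and the deposited p-value columns and false discovery rates were copied. How strand was counted is not given here, and 22 columns of the fragment statistics were not used here.

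Counts were tested with edgeR 4.0.16 in R 4.3.3: filterByExpr (minimum count 10, minimum total 15), TMM factors, robust quasi-likelihood F test, and Benjamini-Hochberg adjustment over 13670 genes at 0.05. Litter, batch and date are not in the labels, so p-values measure the spread among these mice. Within a genotype no pair of libraries agreed within sampling noise (chi-square over its degrees of freedom at least 13.7). The test was run on simulated data first. Alternatives were DESeq2 1.42.0, limma 3.58.1, other scalings and filters, pseudocounts of 0.1 and 1 on RPKM, and leaving out each mouse. Members, lists and tests were chosen with earlier results of these data known. Members were named by role, those called first; of the other pathway genes up to 4 per direction with the smallest adjusted p were named. Shares and promoter motifs were described without a test. Intervals of counting error were not used, since mice are the replicates.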

Additional observations from a re-analysis of the deposited data

Results flagged for a closer look

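In 5 of 66 groups of 10 mice (33 genes in each genotype) 1 mouse stood far from the rest by Dixon's criterion, which chance meets in about 1 of 20 groups. Asah1 was at 51.3 CPM in mouse KO_434, with the other KO mice at 37.7 to 44.9 CPM. Smpd4 was at 18.6 CPM in mouse KO_391 (other KO mice 14.4 to 16.4 CPM) and at 22.3 CPM in mouse WT_409 (other WT mice 15.7 to 18.4 CPM). Galc was at 8.70 CPM in mouse WT_441, with the other WT mice at 5.25 to 6.67 CPM. Ormdl2 was at 24.2 CPM in mouse WT_407, with the other WT mice at 18.6 to 21.4 CPM.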

How the results depend on the processing

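No paired analysis was possible because the mouse numbers of the genotypes are all different and the labels give no litter or batch. Library size alone changed most: 9355 genes were higher and 917 lower, 28 members were higher and 0 lower. There Cers2 (0.40), Cers4 (0.40), Sgms2 (0.27), Smpd1 (0.16), Smpd4 (0.31), Sgpp1 (0.016), Ormdl1 (0.011) and Ormdl2 (0.11) turned positive, the first 5 of them called higher. The falls of Smpd2 and Sphk2 were no longer called (-0.0047 and -0.16), and Sptssa, Cers5 and Sphk1 were called higher. Over the other 8 settings 20 to 21 members rose and 6 to 7 fell, with 3656 to 4216 genes higher and 3986 to 4464 lower. Leaving out each mouse gave 20 to 22 members higher and 6 to 7 lower (3762 to 4180 and 3704 to 4289 of all genes). Smpd4 lost its call without 9 single mice and with no filter (adjusted p = 0.0530), and Sphk1 gained one without 6 single mice. Cers4, not called, ranged from -0.13 to 0.0093 with a mouse left out, turning positive without KO_453 (0.0052) or WT_441. The share of Cers4 in its family, which hardly differed, changed sign without mouse KO_391 (0.0050 percentage points), and in counts rather than RPKM that of Cers6 differed by 1.14 points. The cause of these changes was not tested. At this depth Sptlc3 had only 2 fragments over the KO libraries and 0 over the WT libraries, and Cers4, Cers5, Degs2 and Sphk1 rest on few fragments.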

Other observations

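Some genes that handle the products of the pathway, chosen after their values were seen, also differed. Psap, the precursor of the saposins that help lysosomal hydrolases reach their lipids, averaged 664 ± 66.8 CPM in KO and 393 ± 44.8 CPM in WT mice (log2 fold change 0.75, SE 0.0751, adjusted p = 2.47e-08), and no KO mouse overlapped a WT mouse. Cerk, which makes ceramide 1-phosphate, had 7.08, 11.2 and 19.6 CPM in KO mice, against 3.18, 4.47 and 6.55 CPM in WT mice (log2 fold change 1.30, SE 0.176, adjusted p = 1.83e-06). The carriers Gltp, for glycolipids, and Cptp, for ceramide 1-phosphate, rose by 1.90 and 0.43 (adjusted p = 7.88e-07 and 3.51e-06). Fa2h, which hydroxylates fatty acids of sphingolipids, did not pass the filter and had 0.0800, 0.421 and 1.40 CPM in KO mice, against 0, 0 and 0.135 CPM in WT mice.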
